A study of Mus musculus with 20 samples.

Results

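The cholesterol module followed here was a list of 29 mouse genes, given by name as genes of the pathway with earlier results of these data known, out of 32991 genes quantified in colon tissue. It held 6 enzymes of the mevalonate steps, 11 enzymes that turn farnesyl units into squalene, lanosterol and then cholesterol, 6 genes that regulate the pathway, and 6 genes that move cholesterol or transfer acetyl groups. RNA sequencing was performed on the colons of 20 male C57BL/6 mice in 4 groups of 5. The Control group received double distilled water by gavage. The PZH group received 250 mg/kg/d of PZH, the traditional formula Pien Tze Huang, by gavage for 91 days. The AOM/DSS group, labelled Model, received the water gavage together with 12.5 mg/kg of the colon carcinogen azoxymethane (AOM) by injection and, after 7 days, 2% dextran sulfate sodium (DSS), which injures the colon lining, in the drinking water for 5 days at a time, over 4 cycles. The PZH + AOM/DSS group, labelled Model + PZH, received both the formula and the AOM/DSS course. Every mouse was a separate sample, and whole colon tissue was taken, so that a change in the make-up of cells and a change in RNA per cell cannot be told apart in these values.

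Cells make cholesterol from acetyl-CoA. The mevalonate steps build an activated isoprene unit, 6 of these units are joined into squalene, and squalene is closed into lanosterol and trimmed to cholesterol in the endoplasmic reticulum. When sterol in that membrane is scarce, the escort protein SCAP carries the transcription factor SREBP-2 (gene Srebf2) to the Golgi, where it is cut and released to switch on nearly every synthesis gene, while the INSIG proteins hold SCAP back when sterol is plentiful. When sterol is abundant, the nuclear receptor LXR-alpha (Nr1h3) instead switches on the exporters Abca1 and Abcg1. In the gut, renewing epithelium and macrophages both use this machinery.

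Library depth, read from the size of 1 fragment in the deposited values, lay between about 15350000 and 19440000 fragments per mouse, and was only approximate because 38.2% to 44.7% of low values fell within 0.05 of a whole fragment. The tissue label names colon, although the extraction note in the labels names another organ. The summed level of 9 genes of epithelium in general was 2962 to 7778 FPKM (fragments per kilobase of transcript, scaled to library size) in every mouse. Within this sum Krt8 ran from 0.0706 FPKM in the lowest PZH mouse to 3071 FPKM in the highest Control mouse. The summed level of 7 smooth muscle genes was lower in the other groups than in Control, with a median of 2757 FPKM in Control against 1850 in PZH, 1116 in PZH + AOM/DSS and 1059 in AOM/DSS. The 10 mature colonocyte genes summed to a median of 4209 FPKM in Control and 3344 in PZH, against 2698 in PZH + AOM/DSS and 1273 in AOM/DSS. Control mice 17 and 50 stood apart through 7 squamous epithelium genes, which summed to 304.5 and 259.7 FPKM there and to between 0.824 and 1.65 FPKM in the other 3 Control mice, and results that use Control were therefore also computed without both.

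Because SREBP-2 acts at the start of its target genes together with the factors NF-Y and Sp1, the sequences before the starts of members are shown first. Of the 29 genes, 23 had an entry among the RefSeq promoters of GRCm38.p6, which span 250 bases before to 50 after each start; Fdps, Fdft1, Sqle, Stard4, Npc1 and Abcg1 had none. The NF-Y box CCAAT, searched on both strands, was present at 1 or more starts of 14 of the 14 synthesis enzymes with an entry and of 19 of the 23 members, against 41.1% of all 27025 genes. The Sp1 box GGGCGG was present in 20 of the 23 members, against 38.2% of all genes, and the E-box CACGTG in 6 of 23, against 8.09%. The strict sterol regulatory element TCACNCCAC was found in Hmgcs1 alone, at position -137 from the start, and in 1.44% of all genes. The LXR repeat (AGGTCA repeated in the same direction after 4 bases) was found in no member and in 4 of all 27025 genes. So rare an exact match cannot tell whether members lack LXR sites, and looser forms were not searched. The windows below, 5′ to 3′ on the strand of the gene, show 5 members with the NF-Y box and the exporter Abca1, which has none; capitals mark the NF-Y box on either strand and, in Hmgcs1, the sterol regulatory element. They lie in GRCm38.p6 at chr13:119690171-119690350 (Hmgcs1, plus strand), chr8:122443423-122443542 (Mvd, minus), chr10:76531467-76531586 (Lss, plus), chrX:72918401-72918520 (Nsdhl, plus), chr5:28071172-28071321 (Insig1, plus) and chr4:53159896-53160015 (Abca1, minus), all upstream of the annotated gene.
Hmgcs1: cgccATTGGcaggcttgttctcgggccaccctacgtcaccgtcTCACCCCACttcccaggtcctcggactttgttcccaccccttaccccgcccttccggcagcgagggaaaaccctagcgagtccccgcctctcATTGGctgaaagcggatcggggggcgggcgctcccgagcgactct
Mvd: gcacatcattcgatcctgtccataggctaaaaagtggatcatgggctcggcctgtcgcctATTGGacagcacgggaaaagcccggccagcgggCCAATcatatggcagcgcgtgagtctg
Lss: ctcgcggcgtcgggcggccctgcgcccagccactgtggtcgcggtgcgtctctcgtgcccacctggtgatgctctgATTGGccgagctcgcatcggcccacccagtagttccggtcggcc
Nsdhl: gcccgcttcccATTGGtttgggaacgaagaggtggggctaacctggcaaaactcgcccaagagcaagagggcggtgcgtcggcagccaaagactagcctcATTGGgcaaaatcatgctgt
Insig1: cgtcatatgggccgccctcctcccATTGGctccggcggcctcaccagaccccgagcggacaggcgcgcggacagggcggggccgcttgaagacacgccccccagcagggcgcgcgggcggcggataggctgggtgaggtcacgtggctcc
Abca1: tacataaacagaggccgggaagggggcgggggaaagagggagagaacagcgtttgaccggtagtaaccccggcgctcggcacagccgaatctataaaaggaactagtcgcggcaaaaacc

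**Figure D1:**
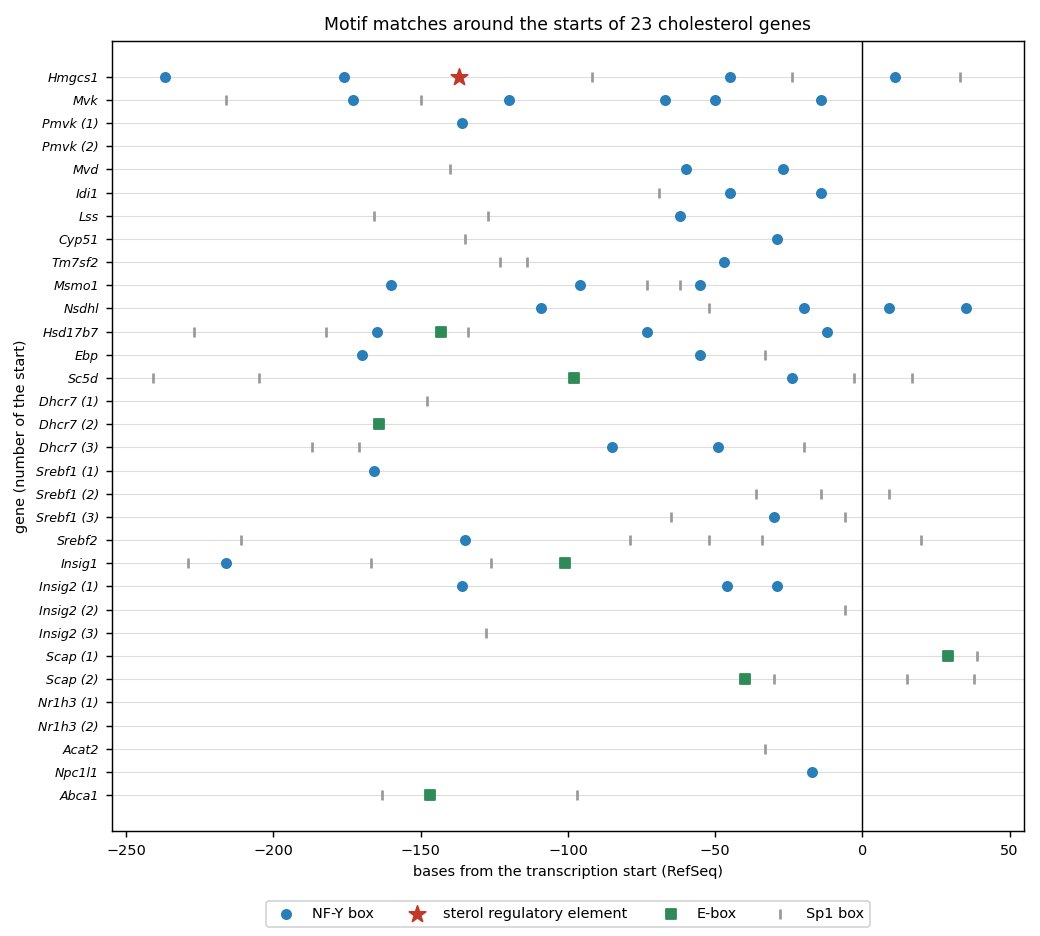
Positions of motif matches around the RefSeq starts of the 23 members with a promoter entry, in bases from the start on the x axis and 1 row per start on the y axis, with numbers for genes that have several starts. NF-Y boxes (circles) lie at 1 or more starts of each of the 14 synthesis enzymes shown, though not at every start of Dhcr7. The sterol regulatory element (star) lies only in the window of Hmgcs1, and neither motif lies in that of Abca1.

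The NF-Y box recurred before genes of each stretch of the pathway, at positions -60 and -27 in Mvd, -62 in Lss, and -109 and -20 in Nsdhl. A match is a run of letters and not a measured binding site, and a window without a match says only that these letters are not in it.

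The pathway was expressed at every step in all 20 mice, with levels that spanned a wide range. Fdps, which makes farnesyl diphosphate, and Hmgcs1, which makes the substrate of the first committed step, had the highest mean levels over the 20 mice, 113.8 and 111.6 FPKM, followed by Msmo1, a sterol C4-methyl oxidase, at 97.3 FPKM. The low end of synthesis was held by Mvk, mevalonate kinase, at 10.7 FPKM and Hsd17b7, a sterol ketoreductase, at 5.11 FPKM. Among the regulators Srebf2 (68.3 FPKM), Insig1 (56.9 FPKM) and Srebf1 (31.6 FPKM) lay above Scap (16.8 FPKM) and Insig2 (14.2 FPKM). The LXR-alpha gene Nr1h3 was low at 1.79 FPKM. Nr1h2, the LXR-beta gene, is outside the module and lay between 24.17 and 35.5 FPKM in every mouse, so LXR as a whole was not low. The exporters Abcg1 and Abca1 had means of 4.08 and 3.40 FPKM. Npc1l1, which takes up dietary cholesterol in the small intestine, was at or under 0.0496 FPKM in every mouse, an estimated 0 to 4 fragments, so it was not tested, and 28 of the 29 members entered every comparison.

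Levels differed from mouse to mouse within groups, and the enzymes did so jointly in some mice, as the map of members by mouse shows. Against each gene's own mean over the 20 mice, the median deviation of the 17 synthesis enzymes on the log2(FPKM + 1) scale ran from -0.58 to 0.02 in Control, from -0.21 to 0.18 in AOM/DSS, from -0.13 to 0.31 in PZH and from -0.08 to 0.42 with both treatments. Control mouse 48 had the lowest level of its group in 11 of the 17 enzymes, PZH mouse 8 in 9, AOM/DSS mouse 44 in 8 and PZH + AOM/DSS mouse 35 in 8. Control mouse 17 had the highest level of its group in 9 of the 17. The Control range reached furthest down, and the ranges of all 4 groups overlapped.

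**Figure D2:**
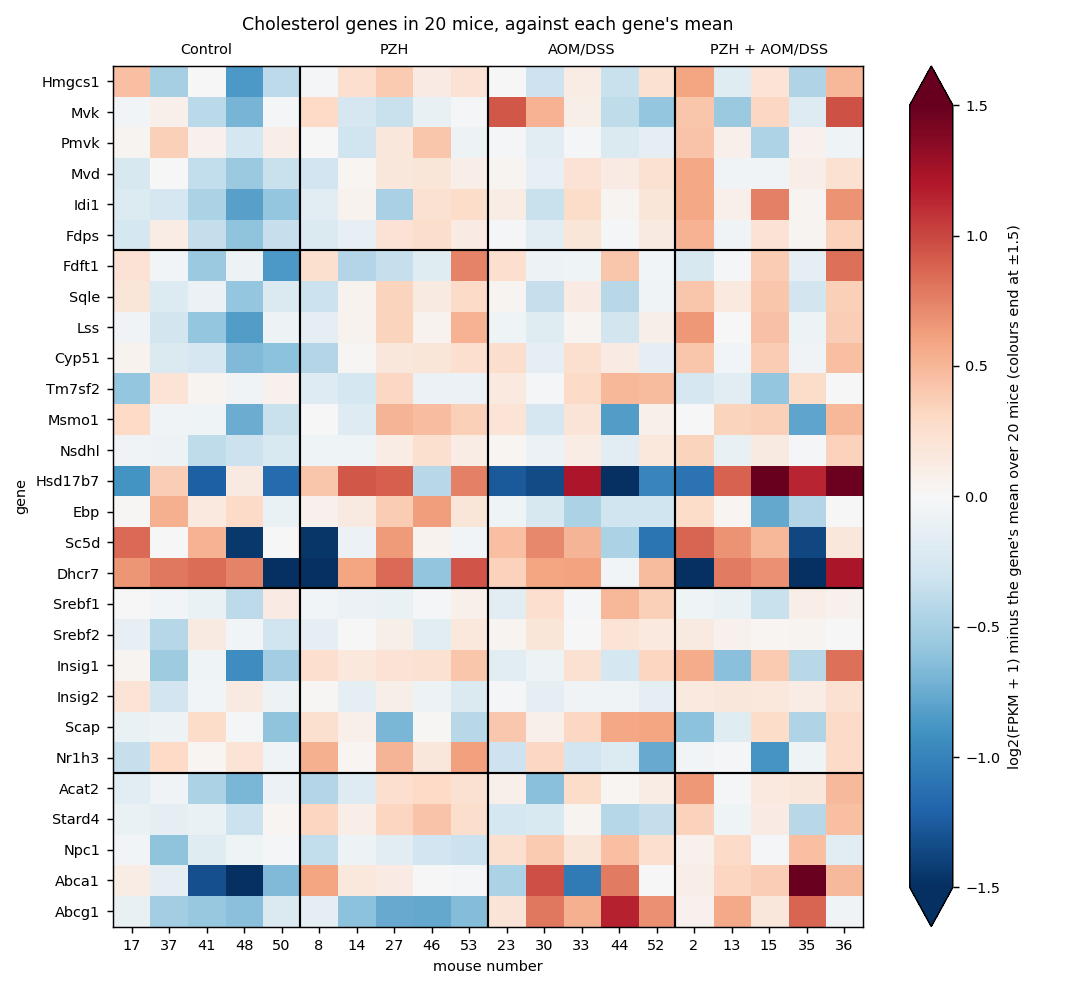
Each cell is 1 gene in 1 mouse, coloured by log2(FPKM + 1) minus the gene's mean over the 20 mice, with colours ending at 1.5 in either direction; columns are mice by group and rows the 28 members tested, ordered as mevalonate steps, squalene and sterol steps, regulation, and transport. Control mouse 48 is low in most enzymes, Abcg1 is high in the AOM/DSS mice, and Hsd17b7, Sc5d, Dhcr7 and Abca1 vary most from mouse to mouse.

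PZH was first compared with Control, which asks what the formula alone does to the pathway. Synthesis genes tended to higher levels in the PZH mice, but no member passed the test: in limma on log2(FPKM + 1), with Benjamini-Hochberg adjustment over all 15506 genes, 0 of 28 members had an adjusted P under 0.05, and 0.00645% of all genes did, which is the phosphatase gene Ppp1cb alone, a gene outside the module named here after its value was seen. At an unadjusted P under 0.05, 10 of the 28 members were higher and 0 lower, while 4.34% of all genes tested were higher at that threshold. The log2 difference was above 0 in 21 of 28 members, with a median of 0.28, against a median of 0.01 over all genes; with only the most abundant transcript of each gene it was above 0 in 17 of 28, with a median of 0.11. By role, 3 of the 6 mevalonate enzymes, 4 of the 11 later enzymes, 1 of the 6 regulators and 2 of the 5 transport genes tested were among the 10.

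The smallest unadjusted P belonged to Stard4, which carries cholesterol between membranes; values of single mice are given in the order of their numbers, 17, 37, 41, 48 and 50 in Control, 8, 14, 27, 46 and 53 in PZH, 23, 30, 33, 44 and 52 in AOM/DSS, and 2, 13, 15, 35 and 36 in PZH + AOM/DSS. Stard4 was at 47.2, 45.5, 47.2, 40.4 and 51.7 FPKM in the Control mice and at 63.3, 54.3, 63.8, 68.4 and 60.9 FPKM in the PZH mice. Every PZH mouse lay above every Control mouse, a log2 difference of 0.41 (SE 0.09, adjusted P = 0.378). Insig1, the sterol-sensing brake on SCAP and itself an SREBP target, was at 56.0, 37.1, 51.9, 28.0 and 37.5 FPKM in Control and at 64.8, 60.6, 63.3, 63.6 and 72.7 FPKM in PZH. These groups were also apart, and the PZH mice lay close together, with an SD of 4.58 FPKM against 11.6 FPKM in Control, giving a log2 difference of 0.66 (SE 0.17, adjusted P = 0.428). Stard4 and Insig1 were the members whose groups did not overlap upward, 2 of 28, beside 0.909% of all genes.

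The enzymes among the 10 overlapped between groups. Lss, which closes the ring of lanosterol, was at 16.0, 13.5, 10.8, 8.83 and 15.7 FPKM in Control and at 15.1, 17.3, 21.2, 17.3 and 24.4 FPKM in PZH, so that 1 PZH mouse lay within the Control range (log2 difference 0.53, SE 0.18, adjusted P = 0.512). Idi1, the isomerase that makes the reactive isoprene unit, had a mean of 38.9 ± 6.66 FPKM (SD, n = 5) in Control and 53.8 ± 11.2 FPKM in PZH. Mvd, the decarboxylase before it, had means of 34.6 ± 5.16 and 43.97 ± 5.55 FPKM, and Fdps of 92.5 ± 17.5 and 117 ± 16.9 FPKM. Cyp51, which removes a methyl group from lanosterol, had means of 43.4 ± 9.13 and 56.4 ± 9.98 FPKM, and Nsdhl, a later decarboxylating dehydrogenase, of 23.5 ± 2.47 and 28.6 ± 2.71 FPKM. For these 5 enzymes the log2 difference lay between 0.28 and 0.45, and the adjusted P between 0.533 and 0.564.

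The remaining 2 of the 10 were low in several mice. Hsd17b7 was at 1.53, 5.06, 1.01, 4.15 and 1.11 FPKM in Control and at 5.28, 7.98, 7.75, 2.52 and 6.93 FPKM in PZH, a log2 difference of 1.07 (SE 0.37, adjusted P = 0.529). Abca1 was at 3.18, 2.50, 0.554, 0.114 and 1.45 FPKM in Control and at 4.86, 3.34, 3.21, 2.85 and 2.82 FPKM in PZH, a log2 difference of 0.93 (SE 0.33, adjusted P = 0.533). In both genes the Control mice with the highest values lay within the PZH range. The 18 members tested outside the 10 had log2 differences from -0.26 (Dhcr7) to 0.45 (Hmgcs1). Among them Srebf2, Scap, Insig2, Abcg1 and Npc1 lay between -0.18 and 0.14. Macrophage genes, which also express these exporters, summed to 279 to 522 FPKM in PZH and to 327 to 639 FPKM in Control. The summed smooth muscle genes were 1047 to 2425 FPKM in PZH and 2256 to 5198 FPKM in Control. All 7 of these genes had log2 differences below 0. The 10 mature colonocyte genes summed to 2780 to 3437 FPKM in PZH and 3908 to 5207 FPKM in Control, without overlap. Of these 10 genes, 9 had log2 differences below 0. The part of these shifts in the result was not tested.

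How far this tendency depends on single mice was examined next. The count of members higher at an unadjusted P under 0.05 was 8 or 9 under every other processing tried, 6 without Control mouse 48, 12 without Control mouse 17 or PZH mouse 8, and 9 without Control mice 17 and 50 together. Fdps turned to a log2 difference of -0.14 when only its most abundant transcript was used. In the lists of neighbouring pathways, 2 of 15 fatty acid synthesis genes, 1 of 13 genes of the isoprenoid branch and 3 of 31 other sterol handling genes were higher at the same threshold, beside 4.34% of all genes, and 0 were lower; these lists were not tested against the members. The 2 were Fasn, fatty acid synthase (30.9 ± 6.11 FPKM in Control, 42.0 ± 6.01 in PZH; adjusted P = 0.512), and Aacs, acetoacetyl-CoA synthetase, which feeds the mevalonate steps (47.0 ± 5.83 and 61.1 ± 8.51 FPKM; adjusted P = 0.512).

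**Figure D3:**
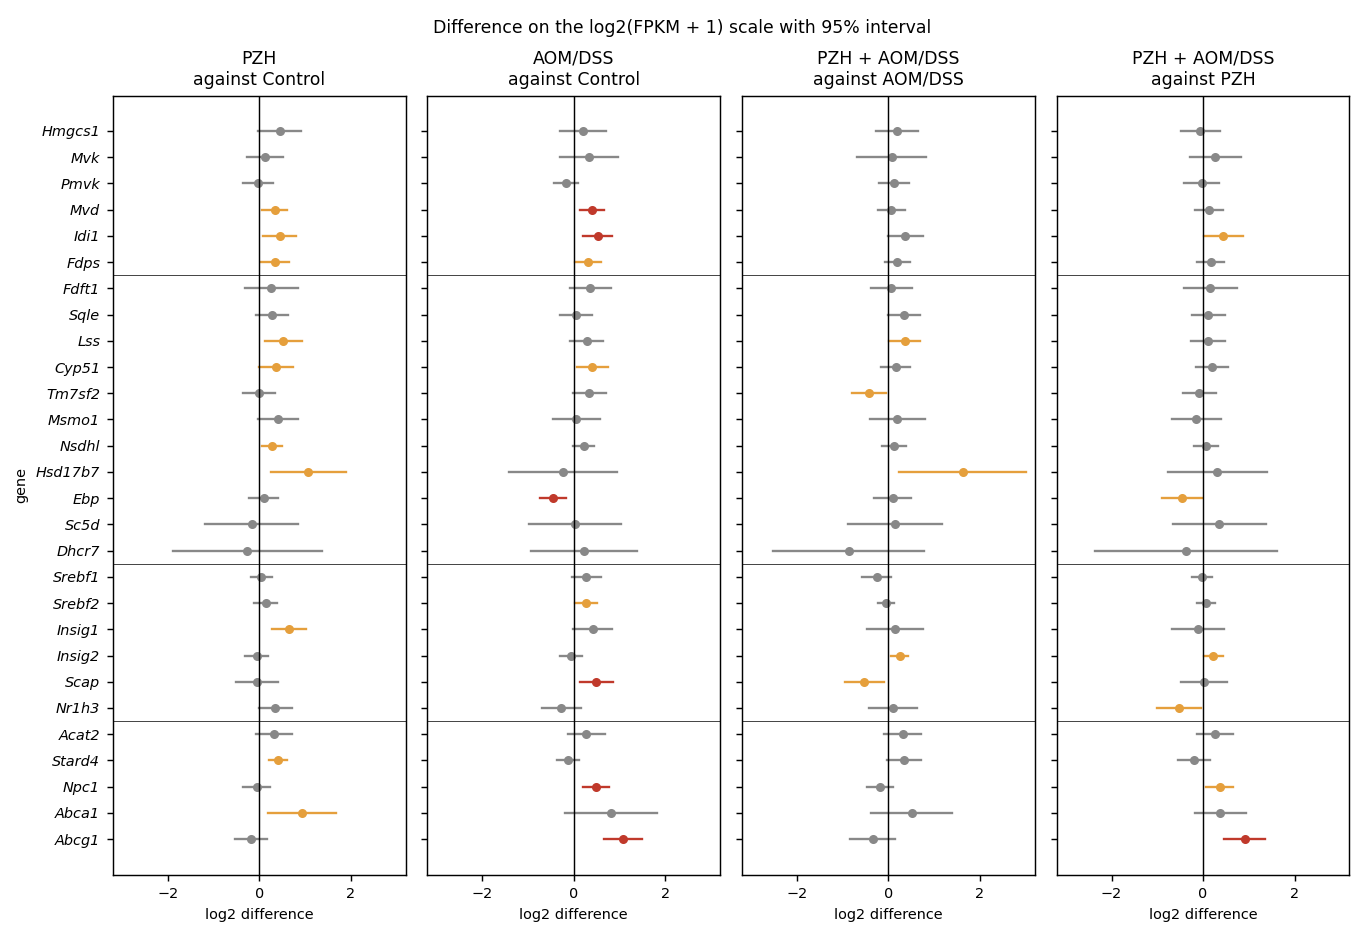
Log2 difference of the 28 members tested (points) with its 95% interval (bars) in 4 comparisons, on the log2(FPKM + 1) scale from limma, genes on the y axis; red marks an adjusted P under 0.05, orange an unadjusted P under 0.05 and grey the rest. In PZH against Control 10 members are orange and lie right of 0, in AOM/DSS against Control 6 are red, and in the other comparisons 0 and 1 are red.

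AOM/DSS was then compared with Control, which asks how the pathway differs in the tumour-bearing colon. Abcg1, the exporter that hands cholesterol to lipoproteins, rose most firmly, with Npc1, Idi1, Mvd and Scap, while Ebp fell. In all, 5 of 28 members were higher and 1 lower at an adjusted P under 0.05, while 16.4% of all 15812 genes were higher and 7.23% lower. The median log2 difference of the members was 0.27 with 22 of 28 above 0, against 0.09 over all genes. When values were rescaled so that the median gene ratio matched between mice, the median over all genes moved to 0.00 and that of the members to 0.15, with 19 of 28 above 0. The share of all called genes that were higher moved from 69.4% to 54.4%, and 1 member higher (Abcg1) and 1 lower (Ebp) were left.

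Abcg1 was at 3.34, 2.26, 2.15, 2.01 and 3.01 FPKM in Control and at 4.32, 7.09, 5.73, 9.38 and 6.50 FPKM in AOM/DSS. All AOM/DSS mice lay above all Control mice, a log2 difference of 1.08 (SE 0.19, adjusted P = 0.00246), and this call held under every alternative tried. Npc1, which releases cholesterol from lysosomes, was at 10.6, 6.85, 9.47, 10.4 and 10.7 FPKM in Control and at 13.1, 14.6, 12.6, 15.3 and 13.2 FPKM in AOM/DSS. Its groups were apart as well (log2 difference 0.49, SE 0.13, adjusted P = 0.0201), with an adjusted P of 0.0547 without AOM/DSS mouse 44 and 0.0553 after rescaling, and Npc1 shares 967 bases with Rmc1 on the opposite strand. Abcg1 and Npc1 were the 2 members whose groups did not overlap upward, beside 13% of all genes. Ebp, the sterol isomerase late in the pathway, was at 49.1, 70.4, 53.8, 59.6 and 45.1 FPKM in Control and at 46.4, 40.9, 34.7, 39.4 and 39.1 FPKM in AOM/DSS. Only AOM/DSS mouse 23 reached the Control range, and the log2 difference was -0.45 (SE 0.13, adjusted P = 0.0285).

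The calls on Idi1, Mvd and Scap were less firm. Idi1 was at 46.3, 44.5, 38.3, 30.04 and 35.4 FPKM in Control and at 57.8, 42.0, 65.0, 55.1 and 60.6 FPKM in AOM/DSS (log2 difference 0.52, SE 0.15, adjusted P = 0.0277). Mvd was at 35.9, 42.5, 32.5, 28.6 and 33.4 FPKM in Control and at 43.7, 38.8, 49.6, 46.5 and 49.9 FPKM in AOM/DSS (log2 difference 0.40, SE 0.12, adjusted P = 0.0327). In both enzymes only AOM/DSS mouse 30 lay within the Control range. Scap had means of 15.3 ± 3.38 FPKM in Control and 21.7 ± 3.21 FPKM in AOM/DSS (log2 difference 0.50, SE 0.16, adjusted P = 0.0498). The number of members called higher was 5 with all mice, 2 without Control mouse 48, Control mouse 50, or AOM/DSS mouse 23, 33 or 52, 1 without AOM/DSS mouse 44, and 2 without Control mice 17 and 50 together. Ebp lost its call without Control mouse 48 or AOM/DSS mouse 33, 44 or 52.

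The other members had no call. Fdps (log2 difference 0.31, adjusted P = 0.11), Cyp51 (0.41, adjusted P = 0.0796) and Srebf2 (0.27, adjusted P = 0.11) were higher at the unadjusted threshold. Hmgcs1, Sqle, Msmo1, Sc5d and Dhcr7 had log2 differences between 0.03 and 0.23, and Nr1h3, Pmvk, Hsd17b7, Stard4 and Insig2 lay between -0.27 and -0.07. Abca1 had a log2 difference of 0.81 with a wide 95% interval of -0.20 to 1.82, and Fdft1 and Tm7sf2 had differences of 0.36 and 0.34. Insig1 had means of 42.1 ± 11.6 FPKM in Control and 55.3 ± 10.04 FPKM in AOM/DSS (log2 difference 0.41, 95% interval -0.02 to 0.84). The 3 enzymes with the largest mean levels, Fdps, Hmgcs1 and Msmo1, had no call.

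**Figure D4:**
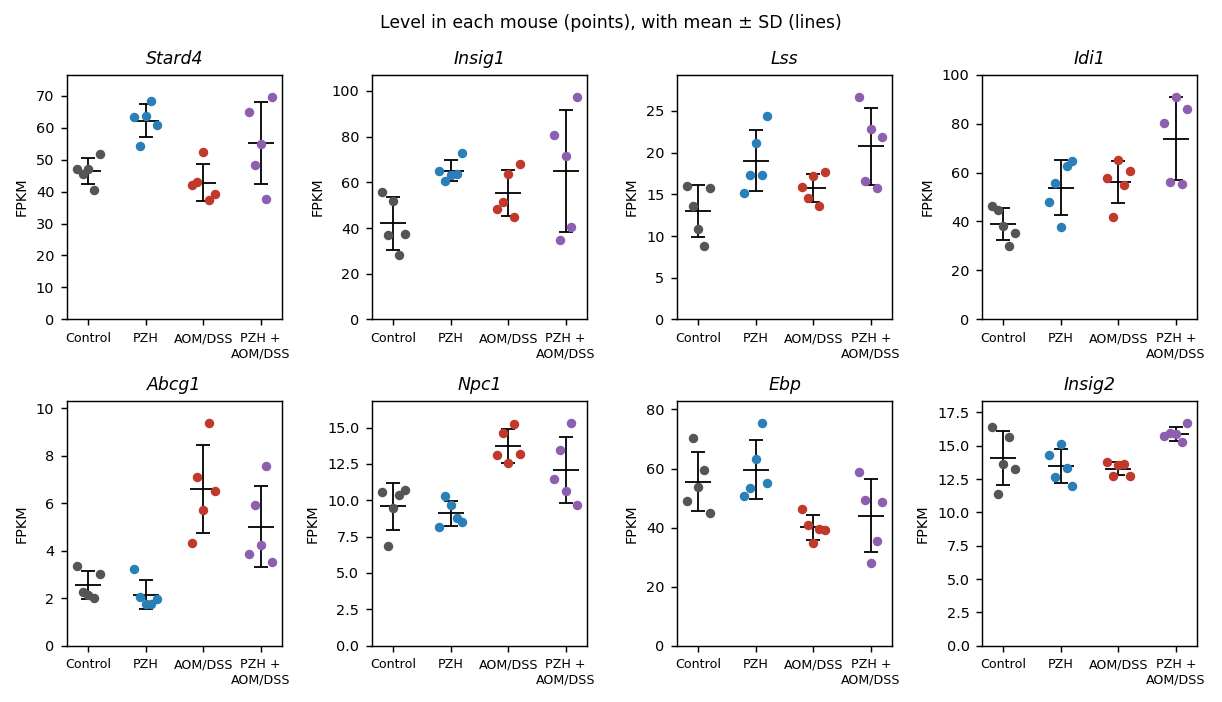
FPKM on the y axis, starting at 0, of 8 members in each mouse (points) by group on the x axis, with the mean and SD of 5 mice (black lines). Stard4 and Insig1 lie higher in all PZH mice than in any Control mouse, Abcg1 and Npc1 higher in all AOM/DSS mice than in any Control mouse, and Insig2 higher in all PZH + AOM/DSS mice than in any AOM/DSS mouse.

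The fatty acid synthesis list held calls in both directions in AOM/DSS. Acly and Acss2, which make cytosolic acetyl-CoA from citrate and from acetate, fell: Acly had means of 165 ± 12.8 FPKM in Control and 97.9 ± 5.84 FPKM in AOM/DSS (log2 difference -0.75, SE 0.09, adjusted P = 0.000182), and Acss2 63.3 ± 4.62 and 29.2 ± 4.98 FPKM (log2 difference -1.10, SE 0.12, adjusted P = 0.000157). Of the 15 fatty acid synthesis genes these 2 were lower and 4 higher at an adjusted P under 0.05, namely Fasn (30.9 ± 6.11 to 56.98 ± 10.3 FPKM), the desaturase Fads1 (12.2 ± 1.14 to 22.95 ± 5.90 FPKM), the NADPH-making malic enzyme Me1 (4.00 ± 1.07 to 8.04 ± 3.29 FPKM) and the phosphatidate phosphatase Lpin1 (2.93 ± 0.489 to 4.70 ± 0.803 FPKM). Of 31 other sterol handling genes tested, 6 were higher and 3 lower, beside 16.4% and 7.23% of all genes. The higher genes included Gramd1a, which moves sterol from the plasma membrane (log2 difference 1.03, adjusted P = 0.00926), and the sterol 27-hydroxylase Cyp27a1 (0.72, adjusted P = 0.0400), and the lower ones included Npc2, the lysosomal partner of Npc1 (-0.40, adjusted P = 0.00928). Only Chm rose among the 13 isoprenoid branch genes (log2 difference 0.39, adjusted P = 0.0330). These lists were counted with all mice and carry the shift over all genes given above.

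The make-up of the tissue differed in the same comparison. Of 11 macrophage genes, 5 were higher and 1 lower at an adjusted P under 0.05, and their summed level was 327 to 639 FPKM in Control and 564 to 744 FPKM in AOM/DSS. All 4 neutrophil genes tested were higher, with the 5 genes of the list summing to 0.188 to 30.3 FPKM in Control and 97.7 to 538 FPKM in AOM/DSS. All 7 smooth muscle genes and 6 of 10 mature colonocyte genes were lower, and 5 of 14 proliferation genes were higher. The part of these shifts in the values of Abcg1, Npc1, Acly, Acss2 and the enzymes was not tested.

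PZH + AOM/DSS was compared with AOM/DSS, which asks whether the formula altered the pathway in the diseased colon. No member passed the test: 0 of 28 had an adjusted P under 0.05 in limma, and 0.00629% of all 15888 genes did, which is Eef1a1 alone, named here after its value was seen. At an unadjusted P under 0.05, 3 members were higher (Lss, Hsd17b7 and Insig2) and 2 lower (Tm7sf2 and Scap), while 3.51% of all genes were higher and 8.21% lower. The log2 difference was above 0 in 21 of 28 members, with a median of 0.13, against a median of -0.04 over all genes.

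Insig2, the second sterol-dependent brake on SCAP, was at 13.8, 12.8, 13.6, 13.6 and 12.7 FPKM in AOM/DSS and at 15.7, 16.0, 15.9, 15.3 and 16.7 FPKM in PZH + AOM/DSS. Both groups were tight and did not overlap, with a log2 difference of 0.24 (SE 0.08, adjusted P = 0.356), and Insig2 was the only member so separated upward, beside 0.403% of all genes. Lss was at 15.8, 14.6, 17.1, 13.6 and 17.7 FPKM in AOM/DSS and at 26.7, 16.6, 22.8, 15.7 and 21.9 FPKM in PZH + AOM/DSS (log2 difference 0.36, adjusted P = 0.407). Hsd17b7 was at 0.960, 0.864, 9.90, 0.578 and 1.37 FPKM in AOM/DSS and at 1.19, 7.67, 14.96, 9.36 and 12.1 FPKM in PZH + AOM/DSS (log2 difference 1.62, adjusted P = 0.379). In Hsd17b7 AOM/DSS mice 33 and 52 lay within the PZH + AOM/DSS range. PZH + AOM/DSS mice 2, 13 and 35 lay within the AOM/DSS range. Scap had means of 21.7 ± 3.21 FPKM in AOM/DSS and 15.1 ± 4.53 FPKM in PZH + AOM/DSS (log2 difference -0.53, adjusted P = 0.366), and Tm7sf2, a sterol C14 reductase, of 26.9 ± 4.23 and 20.1 ± 4.52 FPKM (log2 difference -0.42, adjusted P = 0.384).

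The PZH + AOM/DSS mice were spread widely in Insig1. Insig1 was at 48.3, 51.5, 63.7, 45.0 and 68.1 FPKM in AOM/DSS and at 80.5, 34.7, 71.6, 40.7 and 97.4 FPKM in PZH + AOM/DSS. PZH + AOM/DSS mice 13 and 35 lay below every AOM/DSS mouse and the other 3 above every one. Stard4 was at 64.8, 48.2, 55, 37.7 and 69.7 FPKM in PZH + AOM/DSS against 42.0, 43.0, 52.3, 37.4 and 39.2 FPKM in AOM/DSS (log2 difference 0.33, 95% interval -0.04 to 0.70). The count of members higher at an unadjusted P under 0.05 changed with single mice: 6 without AOM/DSS mouse 33, 5 without PZH + AOM/DSS mouse 35, and 1 without AOM/DSS mouse 23, 30 or 44 or PZH + AOM/DSS mouse 15 or 36. The count lower was 0 without PZH + AOM/DSS mouse 2, and 1 without AOM/DSS mouse 44 or 52 or PZH + AOM/DSS mouse 15. Neutrophil genes summed to 5.07 to 267 FPKM in PZH + AOM/DSS, and mouse 35 had the highest sum of neutrophil (267 FPKM) and macrophage genes (860 FPKM) in its group; their part in the result was not tested.

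Acly, lower in AOM/DSS than in Control, had a mean of 137 ± 34.2 FPKM in PZH + AOM/DSS against 97.9 ± 5.84 FPKM in AOM/DSS (log2 difference 0.45, adjusted P = 0.371). Its lowest PZH + AOM/DSS mouse, at 93.2 FPKM, lay within the AOM/DSS range of 92.0 to 104 FPKM. Acss2 had a mean of 42.4 ± 15.2 FPKM in PZH + AOM/DSS, with mice from 22.6 to 55.6 FPKM against 22.3 to 35.1 FPKM in AOM/DSS. Of 15 fatty acid synthesis genes, 2 were higher and 0 lower at an unadjusted P under 0.05, and of 31 other sterol handling genes 1 was higher and 4 lower, with Cyp27a1 at 15.3 ± 5.61 FPKM in AOM/DSS and 7.30 ± 2.46 FPKM in PZH + AOM/DSS (adjusted P = 0.356). None of these passed the adjusted threshold.

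PZH + AOM/DSS was also compared with PZH, the AOM/DSS difference among mice that all received the formula. Abcg1 was higher at 3.87, 5.92, 4.25, 7.56 and 3.51 FPKM against 3.24, 2.06, 1.76, 1.74 and 1.97 FPKM in PZH. The groups did not overlap, and the log2 difference was 0.91 (SE 0.20, adjusted P = 0.0456). Abcg1 was the only member called, 1 of 28 higher and 0 lower, while 1.74% of all 15636 genes were higher and 0.678% lower, and the call was lost without any of PZH mice 14, 27, 46 or 53 or PZH + AOM/DSS mice 2, 13, 15 or 35, with adjusted P values up to 0.104. At an unadjusted P under 0.05, Idi1, Insig2, Npc1 and Abcg1 were higher and Ebp and Nr1h3 lower, 4 and 2 of 28, beside 13% and 7.89% of all genes. Abcg1 and Insig2 were the members without overlap upward, 2 of 28, beside 5.00% of all genes.

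The 2 AOM/DSS comparisons, whose mice are separate, can be set side by side, though the differences between them were tested only as the interaction given next. Abcg1 differed by 1.08 from Control and by 0.91 between the PZH groups, Npc1 by 0.49 and 0.36, Idi1 by 0.52 and 0.44 and Ebp by -0.45 and -0.46, all as log2 differences. Mvd differed by 0.40 and 0.13, and Scap by 0.50 and 0.02. Macrophage genes were higher here too, with 3 of 11 called, and their part in the Abcg1 result was not tested.

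The interaction, which asks whether PZH acted differently with and without AOM/DSS, was fitted to all 20 mice and 16936 genes. It gave 0 of 28 members at an adjusted P under 0.05, beside 0.0118% of all genes, which are Atf3 and Zfat. At an unadjusted P under 0.05 it gave 1 member above 0, Insig2, beside 3.41% of all genes, and 0 below. Insig2 had a mean of 15.9 ± 0.517 FPKM in PZH + AOM/DSS against 13.3 ± 0.509 in AOM/DSS, 13.5 ± 1.255 in PZH and 14.1 ± 2.00 in Control, and its interaction was 0.29 on the log2 scale (SE 0.13, adjusted P = 0.455). Insig2 no longer passed the unadjusted threshold on its most abundant transcript, without Control mice 17 and 50 together, or without any of Control mice 17 and 48, PZH mice 14 and 53, AOM/DSS mice 30 and 52 or PZH + AOM/DSS mouse 36, and its interaction ranged from 0.16 to 0.36 over all alternatives. The interaction was below 0 in 23 of 28 members, with a median of -0.17 against -0.05 over all genes; with only the most abundant transcript of each gene it was above 0 in 11 of 28, with a median of -0.08. For Insig1 it was -0.51 (95% interval -1.22 to 0.19) and for Stard4 -0.08 (95% interval -0.48 to 0.32), intervals wide enough that a difference between the PZH comparisons was not detectable with 5 mice a group.

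Some members changed from mouse to mouse in ways that followed single transcripts. Dhcr7, the last reductase of the pathway, ranged from 2.296 to 55.6 FPKM, and its transcript ENSMUST00000073878 was listed at 0 in 8 of the 20 mice, in each group. In PZH + AOM/DSS mouse 36 the transcript ENSMUST00000124340 held 50.8 FPKM while it was at or under 0.278 FPKM in the other 19 mice. A listed 0 here can be a failed estimate, and the 95% interval of the Dhcr7 log2 difference ran from -1.89 to 1.36 in PZH against Control. Srebf1 was steadier as a sum, from 23.5 to 44.7 FPKM, but in AOM/DSS mouse 33 ENSMUST00000020846 held 24.0 FPKM and ENSMUST00000134660 held 1.99 FPKM, where the other 19 mice had at most 5.77 FPKM of the former and at least 16.3 FPKM of the latter.

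The sum of Mvd was made of 2 transcripts that differed between groups. ENSMUST00000211883, which the annotation classes as a target of nonsense-mediated decay, was at 8.04, 11.1, 8.97, 0.0764 and 12.5 FPKM in Control and at 0.104, 0.242, 0.0993, 7.58 and 0.178 FPKM in AOM/DSS. ENSMUST00000006692, the main coding form, was at 27.8, 31.4, 23.6, 28.5 and 20.9 FPKM in Control and at 43.6, 38.6, 49.5, 38.9 and 49.7 FPKM in AOM/DSS. The main form did not overlap between Control and AOM/DSS, and with the most abundant transcript in place of the sum the log2 difference of Mvd was 0.72 (SE 0.13, adjusted P = 0.00427) in place of 0.40. As in Dhcr7, a low value of a transcript that switches can be a failed estimate, and the 0.72 carries that uncertainty. In Fdps ENSMUST00000081848 and ENSMUST00000196709 also traded places between mice. The log2 difference of Fdps in AOM/DSS against Control was -0.23 on the most abundant transcript and 0.31 on the sum. Fdps also overlaps the gene Gm43738 on the same strand. Tm7sf2 shares 532 bases on the same strand with Vps51, which had a mean of 21.0 FPKM over the 20 mice. Fdft1 shares 774 bases on the opposite strand with Ctsb, which had a mean of 139 FPKM. Reads from such overlaps may be shared, and their part in these levels was not tested. Acat2, cytosolic acetoacetyl-CoA thiolase, has a close tandem copy with which reads may be shared, and its log2 differences of 0.26 to 0.32 in the 4 pairwise comparisons carry that uncertainty.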

How the data were processed

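Colon RNA of 20 mice in 4 groups of 5 was sequenced by the authors after rRNA depletion and preparation with a kit that does not mark strand. The study's methods also name a poly(A) mRNA isolation kit after the depletion, so the type of library is not certain. Per the study's methods, reads were quality filtered, mapped by HISAT2 to the mm10 assembly, and then assembled and quantified by StringTie. The deposited values, whose unit the file headers do not name, were read as FPKM from their range and the use of StringTie by the authors, and every level and depth given rests on this. They covered 118434 transcripts per mouse, of which 96182 were Ensembl and 22252 assembled transcripts. FPKM of the 96032 transcripts present in GENCODE M21 (GRCm38) were summed over 32991 genes; the assembled transcripts, 12.1% to 14.9% of summed FPKM, carry no gene name and entered no sum. The FPKM are no counts, so count models were not used. Genes with at least 0.5 FPKM in at least 5 mice of a comparison were tested with limma 3.58.1 in R 4.3.3 (mean-variance trend) on log2(FPKM + 1); this scale understates changes of low genes. Pairwise comparisons used their 10 mice and the interaction all 20. P values were adjusted by Benjamini-Hochberg over all genes tested, and adjusted P under 0.05 counted as a call. The test was checked on simulated data with groups of 5; it held its error rate and directions, but a recovery target first set for changes of 1 on the log2 scale was missed and was replaced by one for changes of 2, and most changes of 0.5 were not called, so a member without a call may still differ by such an amount. Depth was approximate, and the lowest members rested on few fragments, with a median of 43.3 estimated fragments per mouse for Nr1h3. The alternatives were median-of-ratios scaling, no filter, a filter at 2 FPKM, a pseudocount of 0.1, all 20 mice in 1 model, the most abundant transcript per gene, leaving out each mouse and, added after the data were seen, leaving out Control mice 17 and 50. Full statistics were given for members with an unadjusted P under 0.05 in a comparison, and other genes were named from fixed pathway and marker lists. The members and lists were chosen with earlier results of these data known. Promoter sequences are from RefSeq (GRCm38.p6).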

Additional observations from a re-analysis of the deposited data

Results flagged for a closer look

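In 112 groups of 5 values (28 members in 4 groups), 6 held a mouse whose gap to its nearest neighbour took up most of the group's range; chance flags about 1 in 20 such groups, or 5.6 here. Hsd17b7 was at 9.90 FPKM in AOM/DSS mouse 33 and at 0.578 to 1.37 FPKM in the other 4. Dhcr7 was at 4.31 FPKM in Control mouse 50 and at 37.5 to 42.4 FPKM in the other 4. Abca1 was at 9.85 FPKM in PZH + AOM/DSS mouse 35, against 3.16 to 4.41 FPKM, and at 4.86 FPKM in PZH mouse 8, against 2.82 to 3.34 FPKM. Abcg1 was at 3.24 FPKM in the same PZH mouse 8, against 1.74 to 2.06 FPKM. In PZH + AOM/DSS mouse 35 (860 FPKM) and PZH mouse 8 (522 FPKM), macrophage genes had the highest sum of the group. Goblet cell genes (2607 and 4602 FPKM) and mature colonocyte genes (1018 and 2780 FPKM) had the lowest sum of the group in the same mice. The part of these shifts in the values of Abca1 and Abcg1 was not tested. Tm7sf2 was at 27.3 FPKM in PZH mouse 27 and at 18 to 20.5 FPKM in the other 4.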

How the results depend on the processing

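With 5 mice a group and a scale of log2(FPKM + 1), small differences of low members could not be resolved. In AOM/DSS against Control, the members higher at an adjusted P under 0.05, 5 with all mice, numbered 1 after median-of-ratios scaling, 3 on the most abundant transcript and 2 without Control mice 17 and 50, and ranged from 1 to 5 when single mice were left out; the 1 lower became 0 with all 20 mice in 1 model and ranged from 0 to 1. At an unadjusted P under 0.05 the 8 higher became 4 and the 1 lower 2 after scaling, the lower were 2 without Control mice 17 and 50, and without single mice they ranged from 5 to 10 and from 1 to 2. In PZH against Control the unadjusted higher count of 10 ranged from 6 to 12. In PZH + AOM/DSS against AOM/DSS, 1 higher and 1 lower were left at the unadjusted threshold on the most abundant transcript, and without single mice the counts ranged from 1 to 6 and from 0 to 3. In PZH + AOM/DSS against PZH, Abcg1 lost its call with no filter and on the most abundant transcript (0 members higher, as in 8 of the fits without a single mouse; range 0 to 1), the unadjusted higher count became 2 after scaling (range 2 to 4) and the lower 1 on the most abundant transcript (range 0 to 2). Fdps changed direction on the most abundant transcript, to -0.14 in PZH against Control and -0.23 in AOM/DSS against Control. In the interaction the adjusted counts stayed at 0, and at the unadjusted threshold the 1 higher (Insig2) became 0 in 9 of 26 alternatives and the lower count ranged from 0 to 1. The cause of these changes was not tested, and fits that leave mice out also hold fewer mice.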

Other observations

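Sc5d, which makes the last double bond before Dhcr7 acts, was either low or high in single mice of every group. It was at 5.20 to 11.3 FPKM in 5 mice (mouse 48 of Control, 8 of PZH, 35 of PZH + AOM/DSS, and 44 and 52 of AOM/DSS) and at 14.99 to 30.25 FPKM in the other 15. An assembled transcript without a gene name, picked after its values were seen as the 1 of 20551 that ran most against Sc5d over the mice in a search made for each of 28 members, was at 8.73 to 10.3 FPKM in exactly those 5 mice and at 0 to 1.51 FPKM in the other 15. Its place in the genome was not analysed here, and the gene sums used here hold only named transcripts.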
